A study of Drosophila melanogaster with 39 samples.

Results

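The transfer RNA genes of *Drosophila melanogaster* were examined in ChIP-seq peak lists of 2 insulator proteins and a ubiquitin ligase scaffold from Kc167 cells, an embryo-derived line of hemocyte type. All nuclear genes whose symbol starts with tRNA: were taken, which gave 295 of the 18320 nuclear genes in the annotation of the release 6 assembly (dm6), 290 of them annotated as tRNA genes and 5 as tRNA pseudogenes. Cells had been transfected with dsRNA against *eff*, which encodes the E2 ubiquitin-conjugating enzyme Effete, against *cul4*, which encodes the scaffold of Cullin-RING E3 ligases, or against *mcherry*, a sequence absent from the fly genome, as the control, and were harvested after 4 days. The insulator protein CP190, the zinc finger protein Su(Hw) of the gypsy insulator, and Cul4 with a rabbit antibody were immunoprecipitated after *eff* knockdown, after *cul4* knockdown and in control cells, while a mouse antibody to Cul4 was used in the control alone, with 3 biological replicates in each of the 10 groups. The labels do not say how far each protein was depleted, and peak lists cannot show it. Each of the 30 lists was deposited for 1 library, and its peaks are named for that replicate alone. The lists ran from 424 to 9149 peaks, read totals are not part of them, and the depth of the libraries is therefore unknown.

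A tRNA gene is read by RNA polymerase III. Its promoter lies inside the transcribed part, as an A box and a B box that bind TFIIIC, and TFIIIC places TFIIIB just upstream of the gene. In yeast and in human cells, tRNA genes and other TFIIIC sites are known as insulators and as points where loci meet in the nucleus, the kind of activity for which CP190 and Su(Hw) are known in flies.

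The 295 genes carried 22 isotypes and 44 anticodons, with a median length of 73 bp. They lay at 176 loci when genes at most 1000 bp apart were joined, 105 loci with a single gene and 71 clusters that held 190 genes, the largest with 7. Most were repeated, since 238 had at least 1 identical copy elsewhere and no 50-base stretch of their own, the read length used. Their 500 bp flanks were close to unique, with a median of 98.9% of 50-base stretches found once. Reads from the bodies of those 238 genes are lost when reads of low mapping quality are removed, so binding there was visible through the flanks. The B box letters GNTCNANNC were found on the gene strand in 292 tRNA genes (99.0%), against 4.4% of 17982 other genes searched in first bases of the same length.

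The 6 genes printed here are a choice of those described below from chromosome arm 3R. They are taken from the RefSeq sequence of release 6, 5′ to 3′ on the gene's own strand with the B box letters in capitals. tRNA:Lys-TTT-2-1 (chr3R:6819894-6819966) and tRNA:Ser-GCT-2-5 (chr3R:22397572-22397653) kept rabbit Cul4 in every library. tRNA:Leu-CAA-2-3 (chr3R:23601333-23601455, minus strand) rose in CP190 and Su(Hw) in both knockdowns. tRNA:Arg-TCG-2-4 (chr3R:8862933-8863005, within the gene *pyd*) was highest in the CP190 and Su(Hw) lists of control cells and tRNA:Val-CAC-1-1 (chr3R:17617761-17617833) in those of the mouse Cul4 antibody. tRNA:Val-CAC-2-5 (chr3R:19672277-19672349, minus strand, within *Naam*) fell in CP190 in the tests of both knockdowns, as did tRNA:Gly-TCC-1-2, which is not printed. For both genes the call after *cul4* knockdown did not hold under every alternative.
tRNA:Lys-TTT-2-1: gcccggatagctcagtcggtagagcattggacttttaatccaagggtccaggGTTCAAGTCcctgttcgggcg
tRNA:Ser-GCT-2-5: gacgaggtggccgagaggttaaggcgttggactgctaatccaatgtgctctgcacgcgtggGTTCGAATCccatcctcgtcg
tRNA:Leu-CAA-2-3: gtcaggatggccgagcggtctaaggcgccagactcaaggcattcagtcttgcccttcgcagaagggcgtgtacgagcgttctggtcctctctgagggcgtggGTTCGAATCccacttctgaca
tRNA:Arg-TCG-2-4: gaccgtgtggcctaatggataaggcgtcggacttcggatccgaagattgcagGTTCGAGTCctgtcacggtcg
tRNA:Val-CAC-1-1: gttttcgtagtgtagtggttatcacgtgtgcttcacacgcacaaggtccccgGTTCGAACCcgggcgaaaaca
tRNA:Val-CAC-2-5: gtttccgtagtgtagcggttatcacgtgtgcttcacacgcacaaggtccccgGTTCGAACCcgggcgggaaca

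A tRNA gene counted as called in a library when a peak overlapped its span with 500 bp to each side by at least 1 bp, and as reproducibly called in a group when called in all 3 libraries. The comparison was with the other 18025 nuclear genes, each with a window of the same 1073 bp at its 5′ end. CP190 was the factor most often found. After *eff* knockdown 72, 72 and 72 tRNA genes were called in replicates 1, 2 and 3, after *cul4* knockdown 79, 68 and 61, and in control cells 86, 71 and 98. Reproducible CP190 calls were held by 68 genes (23.1%) after *eff* knockdown against 35.9% of the other genes, by 61 (20.7%) after *cul4* knockdown against 28.5%, and by 71 (24.1%) in control cells against 34.0%. tRNA genes thus had CP190 less often than the average gene in each treatment, and the 3 treatments overlapped in their counts per library.

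Rabbit Cul4 was called at 88, 18 and 18 tRNA genes after *eff* knockdown, at 32, 27 and 32 after *cul4* knockdown and at 39, 44 and 42 in control cells. Replicate 1 of the *eff* knockdown stood apart from its other two replicates, also in list length, with 4488 peaks against 571 and 424. Reproducible calls were held by 14 tRNA genes (4.75%) after *eff* knockdown, against 0.721% of the other genes. After *cul4* knockdown they were held by 26 (8.81%), against 12.5% of the other genes, and in control cells by 38 (12.9%), against 21.8%. The share of tRNA genes was below that of the other genes after *cul4* knockdown and in control cells, and 6.58 times that of the other genes after *eff* knockdown. This order depended on list length, as seen with lists shortened to their strongest peaks by the −log10 p of the peak caller. With each list shortened to its 424 strongest peaks, tRNA genes were above the other genes in each treatment, with 4.41 against 0.48% after *eff* knockdown, 5.08 against 1.49% after *cul4* knockdown and 5.42 against 1.26% in control cells. The mouse antibody called 23, 24 and 21 tRNA genes in control cells, 21 of them in all 3 libraries (7.12%), against 2.53% of the other genes.

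Su(Hw) was the rarest. It was called at 14, 14 and 15 tRNA genes after *eff* knockdown, 15, 14 and 14 after *cul4* knockdown, and 15, 15 and 15 in control cells. Reproducible calls were held by 14 genes (4.75%) after *eff* knockdown against 3.61% of the other genes, by 13 (4.41%) after *cul4* knockdown against 3.13%, and by 15 (5.08%) in control cells against 3.86%. These shares are near the background. Per library, the means were 72.0 ± 0.0, 69.3 ± 9.07 and 85.0 ± 13.5 genes for CP190 after *eff* knockdown, after *cul4* knockdown and in control cells (SD, n = 3 each), and the libraries of 1 group are biological replicates by their labels.

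**Figure D1:**
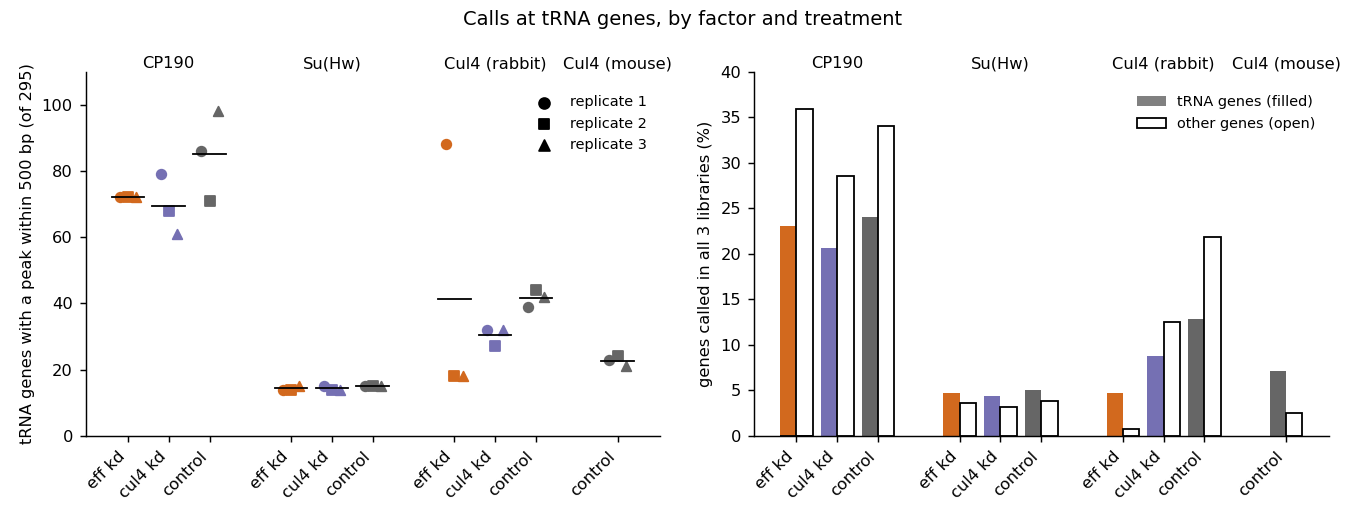
Left, tRNA genes with a peak within 500 bp (of 295) in each of the 30 libraries, by factor and treatment, with replicates as symbols and the mean as a line. Right, the percent of tRNA genes (filled) and of other nuclear genes (open) called in all 3 libraries, where rabbit Cul4 after *eff* knockdown and the mouse antibody are among the groups with the filled bar above the open one.

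No list called 160 of the tRNA genes (109 loci), 135 were called in at least 1 list, and none in all 30. Calls recurred at the same genes. CP190 was present in all 9 of its libraries at 58 genes (42 loci), Su(Hw) in all 9 at 13 genes (12 loci) and rabbit Cul4 in all 9 at 14 genes (8 loci). In control cells, rabbit Cul4 and CP190 were both reproducibly called at 31 genes (20 loci), CP190 without Cul4 at 40 and Cul4 without CP190 at 7. CP190 was thus present at 81.6% of the tRNA genes with rabbit Cul4, against 82.6% of the other genes with it. Of the 15 tRNA genes with Su(Hw), 14 also had CP190 (93.3%), against 86.6%. These shares are near the background. All 3 factors were reproducibly called within the window of 1 gene, tRNA:Leu-AAG-1-2 on 2R. The CP190 and rabbit Cul4 peak regions there did not overlap each other. In the flanks of this gene 57.6% of 50-base stretches were found once. The rabbit and mouse antibodies shared 15 genes, which is 39.5% of the 38 with the rabbit antibody and 71.4% of the 21 with the mouse antibody. Among the other genes the shared part was 7.5% of 3926 and 64.3% of 456.

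Chromosome arm 2R held 100 of the tRNA genes, 3R 79, 3L 49, 2L 41 and X 26. By isotype, calls were spread unevenly. None of the 10 Asn genes and not the single selenocysteine gene had a reproducible call in any group. The Pro genes had CP190 at 8 of 17, and the Leu genes at 10 of 22 after *eff* knockdown, 7 after *cul4* knockdown and 10 in control cells. Rabbit Cul4 after *eff* knockdown was found at 5 of 17 Ala genes, 3 of 20 Ser genes and 2 of 6 initiator Met genes, which set the first amino acid of a protein, and at 1 gene each for Arg, Glu, Lys and Thr. Genes of 1 cluster share peaks, so these are not independent counts.

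Fold enrichment, the read pileup of a summit over the local background that the peak caller MACS2 takes from input, was set against the other peaks of the same list as a percentile. In control cells, the locus of tRNA:Arg-TCG-2-3 and tRNA:Arg-TCG-2-4 led for CP190 (17.13-, 20.90- and 18.53-fold, mean percentile 98.4) and for Su(Hw) (19.45-, 20.40- and 19.54-fold, mean percentile 99.9). For CP190 the loci of tRNA:Val-CAC-1-1 (98.0), tRNA:Pro-CGG-2-2 (97.9), tRNA:Ala-CGC-1-1 (97.2) and tRNA:Glu-TTC-1-5 (95.9) came next. For Su(Hw) it was tRNA:Cys-GCA-2-1 (97.7; 17.33-, 16.49- and 16.81-fold), within the gene *Dbx*. The next Su(Hw) loci stood lower, at 84.9 for tRNA:Pro-CGG-1-1, 75.7 for tRNA:Leu-TAG-1-1 and 73.0 for tRNA:Met-CAT-1-3.

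For rabbit Cul4 the loci of tRNA:Ala-CGC-1-1 (99.6), tRNA:Lys-TTT-2-1 (99.4), tRNA:iMet-CAT-1-4 (98.9), tRNA:Arg-ACG-1-3 (98.5) and tRNA:Ser-GCT-2-3 (98.2) led in control cells, close to the top of lists of 4447 to 5355 peaks. tRNA:Lys-TTT-2-1 lies 164 bp from 7SLRNA:CR42652, another polymerase III gene that encodes the RNA of the signal recognition particle and was called as well. With the mouse antibody, tRNA:Val-CAC-1-1 led at 16.60-, 18.06- and 19.93-fold (97.4), where the rabbit antibody called a peak in 1 of the 3 control libraries (3.61-fold). tRNA:Ala-CGC-1-1 followed (92.4), with tRNA:iMet-CAT-1-4 (61.1), tRNA:Ala-TGC-1-1 (47.0) and tRNA:Thr-AGT-2-1 (45.3) well below it.

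Over all tRNA genes with a reproducible call in control cells, the median percentile was 87.7 for rabbit Cul4 against 54.8 for the other genes called, 73.7 against 51.0 for CP190, 65.8 against 65.9 for Su(Hw) and 43.2 against 50.8 for the mouse antibody. Counted by locus, the median for rabbit Cul4 was 78.9. Rabbit Cul4 at or over the 90th percentile was found at 18 of 38 tRNA genes (47.4%), against 8.5% of the other genes called. This share was 25.4 against 7.3% for CP190, 23.8 against 8.8% for mouse Cul4 and 13.3 against 16.5% for Su(Hw). tRNA genes with rabbit Cul4 were therefore few and lay high in the lists. By the median, those with mouse Cul4 lay slightly below the other genes, but by this share above them, on 5 genes. Those with Su(Hw) had the median of the other genes.

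The DNA at 4 summits of the loci described here is printed from the same assembly, 50 bp to each side of the summit on the strand of the tRNA gene. What the proteins bind there was not tested. Capitals mark the letters TGCATA, the core of the Su(Hw) motif, or GAGAG, the letters of GAGA factor, on either strand. The Su(Hw) window held GAGAG but not TGCATA, and the Cul4 windows held neither. The windows are chr3R:23601699-23601799 for CP190, chr3R:8863337-8863437 for Su(Hw), chr3R:6819388-6819488 for rabbit Cul4 and chr3R:17617323-17617423 for mouse Cul4.
CP190 summit near tRNA:Leu-CAA-2-3: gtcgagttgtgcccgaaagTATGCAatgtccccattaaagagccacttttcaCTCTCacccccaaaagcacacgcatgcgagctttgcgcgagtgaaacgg
Su(Hw) summit near tRNA:Arg-TCG-2-4: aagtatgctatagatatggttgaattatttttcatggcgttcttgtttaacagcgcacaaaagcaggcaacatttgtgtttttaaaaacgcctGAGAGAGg
Cul4 (rabbit) summit near tRNA:Lys-TTT-2-1: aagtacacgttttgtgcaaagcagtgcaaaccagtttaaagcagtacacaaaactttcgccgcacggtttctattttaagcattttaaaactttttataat
Cul4 (mouse) summit near tRNA:Val-CAC-1-1: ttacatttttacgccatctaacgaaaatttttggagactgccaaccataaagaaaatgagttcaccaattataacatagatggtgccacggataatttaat

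Within 100 bp of the summit on either side, TGCATA was found at 8 of 15 Su(Hw) sites next to tRNA genes (53.3%), against 45.6% of 3725 other Su(Hw) sites. Among CP190 sites, CGATA, the letters bound by BEAF-32, was found at 18 of 50 (36.0%) against 37.1% of 7063 other sites, GAGAG at 11 (22.0%) against 17.2%, TGCATA at 9 (18.0%) against 24.0%, and GTGTGACC, the letters of M1BP, at 2 (4.0%) against 7.1%. Both strands were searched, and matches were allowed to overlap. Rabbit Cul4 sites held GAGAG at 4 of 24 (16.7%) against 27.7% and CGATA at 7 (29.2%) against 34.7%. Mouse Cul4 sites held GAGAG at 4 of 13 (30.8%) against 14.2% and CGATA at 2 (15.4%) against 27.3%. GAGAG was thus below the other sites with the rabbit antibody and above them with the mouse antibody, on 4 sites in each.

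Peaks at tRNA genes lay beside the gene, more often upstream than downstream. Of the CP190 peaks, 29, 30 and 29 had their summit upstream of the nearest tRNA gene and 19, 18 and 19 downstream after *eff* knockdown. In control cells 36, 30 and 41 lay upstream and 19, 19 and 21 downstream. The median distance from the gene was 239, 235 and 237 bp after *eff* knockdown, 211, 210 and 180 bp after *cul4* knockdown, and 223, 209 and 184 bp in control cells. Summits lay nearer to the tRNA gene than to a protein-coding transcription start site (TSS) for 42 of 55, 38 of 49 and 49 of 63 CP190 peaks in control cells, for 16 of 25, 20 of 30 and 17 of 26 rabbit Cul4 peaks, and for 14 of 15 Su(Hw) peaks in each control library. These peaks were taken for lying within 500 bp of a tRNA gene, and the median tRNA gene was 2863 bp from a TSS. The choice of peaks thus largely set these shares, which cannot show a preference for tRNA genes.

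**Figure D2:**
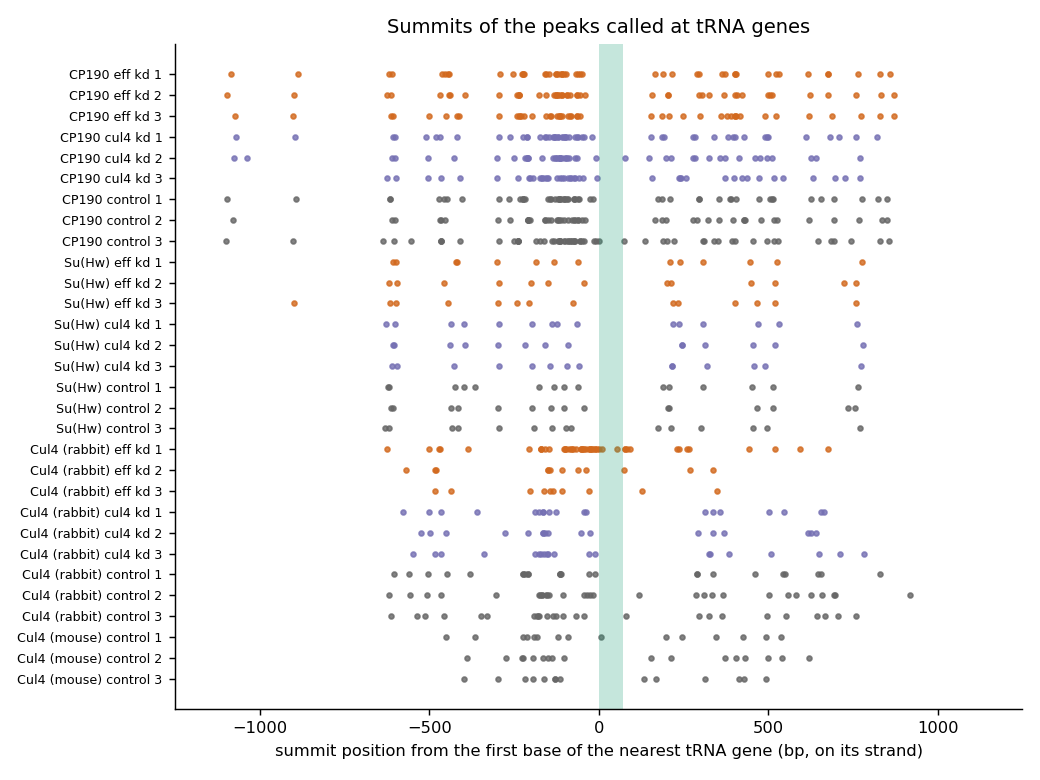
Summit of every peak called at a tRNA gene, 1 row for each of the 30 libraries, as the distance in bp from the first base of the nearest tRNA gene along its strand, with the band marking 73 bp, the median gene length. Summits gather upstream of the band, and in replicate 1 of rabbit Cul4 after *eff* knockdown 29 of 49 lie within 100 bp of the gene.

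The tRNA genes were then split by distance to the nearest protein-coding TSS, with 34 genes at 0 to 500 bp, 93 at over 500 to 2000 bp, 106 at over 2000 to 10000 bp and 62 farther away. Other non-coding genes at the same distance were used beside them. For CP190 in control cells, 12 of 34 (35.3%), 27 of 93 (29.0%), 24 of 106 (22.6%) and 8 of 62 (12.9%) tRNA genes were reproducibly called, from near to far, against 33.0, 14.1, 6.9 and 3.5% of the other non-coding genes. Within 500 bp of a TSS the shares were alike. Beyond it they were apart, by the greatest factor in the farthest bin.

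Rabbit Cul4 in control cells was called at 9 of 34 (26.5%), 8 of 93 (8.6%), 18 of 106 (17.0%) and 3 of 62 (4.8%) tRNA genes, against 26.9, 9.9, 4.0 and 2.0% of the other non-coding genes. Up to 2000 bp from a TSS the shares were alike, and beyond it the share at tRNA genes was the higher one. The mouse antibody called 8.8, 8.6, 7.5 and 3.2% of the tRNA genes, above 3.7, 1.3, 1.6 and 0.5% of the others in every bin. These were 3, 8, 8 and 2 tRNA genes at 3, 6, 5 and 1 loci. Su(Hw) was called at 5.9, 4.3, 7.5 and 1.6%, against 3.5, 4.4, 4.8 and 4.9%, on counts of 2, 4, 8 and 1 genes. Rabbit Cul4 after *eff* knockdown was called at 2.9, 3.2, 7.5 and 3.2% of the tRNA genes, against 1.4, 0.3, 0.6 and 0.3% of the others. These were 1, 3, 8 and 2 tRNA genes at 1, 2, 3 and 2 loci, and genes of 1 cluster share peaks.

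**Figure D3:**
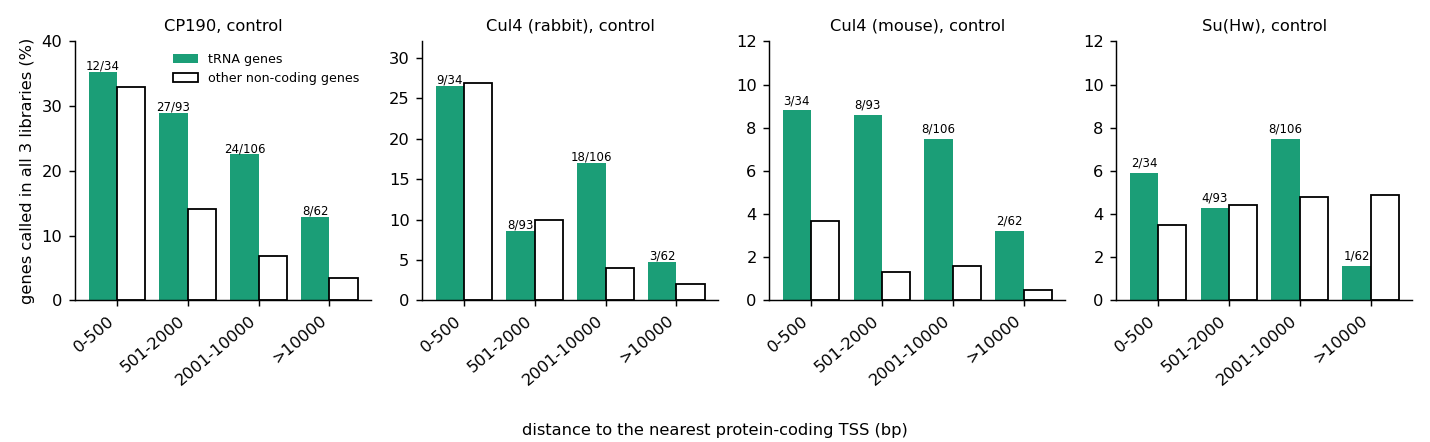
Percent of tRNA genes (green, with counts) and of other non-coding genes (open) reproducibly called in control cells, by distance in bp from the nearest protein-coding TSS, for CP190, rabbit Cul4, mouse Cul4 and Su(Hw), with vertical scales that differ between panels. CP190 at tRNA genes runs from 35.3% near a TSS to 12.9% beyond 10000 bp, and at other non-coding genes from 33.0 to 3.5%.

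Genes inside the span of a protein-coding gene were less often called than the rest, with CP190 at 22 of 137 (16.1%) in control cells against 49 of 158 (31.0%) outside. Clusters were called more often than single loci by CP190, at 24 of 71 loci (33.8%) against 26 of 105 (24.8%), and by rabbit Cul4, at 15 of 71 (21.1%) against 9 of 105 (8.6%). Su(Hw) went the other way, with 4 of 71 clusters (5.6%) against 10 of 105 single loci (9.5%). A cluster covers more bases than a single locus, which was not corrected for. Counted by gene, CP190 was alike, at 45 of 190 clustered genes (23.7%) against 26 of 105 single genes (24.8%), and rabbit Cul4 was at 29 of 190 (15.3%) against 9 of 105 (8.6%). Of the 10 clusters with at least 4 genes, 2 had reproducible CP190 and 2 had rabbit Cul4 in control cells, at 6 of their 52 genes for either factor (11.5%).

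The clusters of 7 genes for Ile and Leu around tRNA:Ile-AAT-1-3 on 2R, of 7 for Arg and Ser around tRNA:Arg-TCG-2-1 on X (chrX:14014814-14017284) and of 6 for Cys and Lys around tRNA:Cys-GCA-1-1 on 3L (chr3L:3095737-3097590) had peaks in 1 library of the 30 each, replicate 1 of rabbit Cul4 after *eff* knockdown, which called 5, 3 and 5 of their genes. The 6 genes for Asn and Arg around tRNA:Asn-GTT-1-10 on 3R (chr3R:8139533-8141042) were called in none. Among clusters of 5 or more genes, reproducible calls were found at 1, that of 5 Glu genes around tRNA:Glu-TTC-1-5 on 2R. In control cells 2 of its 5 genes, tRNA:Glu-TTC-1-5 and tRNA:Glu-TTC-1-6, had CP190 and had Cul4 with both antibodies.

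Other gene classes were counted in the same way. In control cells, CP190 was reproducibly called at 18.6% of 269 snoRNA genes, 44.8% of 29 snRNA genes other than U6 and 13.0% of 262 microRNA genes, beside 24.1% of the tRNA genes, and rabbit Cul4 at 19.7, 48.3 and 8.40%, beside 12.9%. Of the 107 other small RNA genes of polymerase III, the 100 5S rRNA genes had no reproducible call, and they are repeats of each other. Of the remaining 7, CP190 was called at 7SLRNA:CR42652, snRNA:U6:96Ab and snRNA:U6:96Ac in all 9 libraries, and rabbit Cul4 at 7SLRNA:CR42652 in 2, 3 and 3 libraries after *eff* knockdown, after *cul4* knockdown and in control cells.

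The protein-coding genes that make and load tRNAs were counted at their promoters. Of 21 matched genes for polymerase III and its factors, CP190 was reproducibly called within 1000 bp of a TSS at 14 after *eff* knockdown, 10 after *cul4* knockdown and 14 in control cells, and rabbit Cul4 at 0, 2 and 6. Brf and Bdp1, subunits of TFIIIB, had rabbit Cul4 in 0 and 1 libraries after *eff* knockdown, 0 and 2 after *cul4* knockdown, and 3 and 3 in control cells. In the same order of treatments, Polr3C had it in 0, 0 and 3 libraries and Polr1D in 1, 1 and 3. Polr3F and Pbp49 each had it in 1, 3 and 3. Polr3A had it in 0, 2 and 0 and La in 0, 1 and 0. Of 20 aminoacyl-tRNA synthetase genes, which encode the enzymes that charge tRNAs, CP190 was called at 18, 12 and 17 and rabbit Cul4 at 0, 7 and 13. Over all 13973 protein-coding genes the shares were 47.6, 38.9 and 45.5% for CP190, and 1.1, 17.4 and 29.1% for rabbit Cul4.

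Knockdown and control were then compared gene by gene. A gene was lost when called in each control library but in none of the knockdown, gained when it was the other way round, and kept when all 6 libraries called it. Both comparisons of a factor share their 3 control libraries. For rabbit Cul4 after *eff* knockdown, 14 of the 38 tRNA genes of control cells were kept (36.8%), against 3.29% of the 3926 other genes called. Of the tRNA genes 2 were lost (5.26%), against 34.4% of the others, and 22 were called in some of the 3 knockdown libraries. None was gained, against 0% of the other genes. Without replicate 1 of the knockdown, with its long list, 14 tRNA genes were again kept and 19 were lost, against 3.29% and 87.95% of the other genes. Without replicate 2 or 3, 15 and 18 tRNA genes were kept (39.5 and 47.4%), against 5.35 and 9.98%. Without replicate 2 gains numbered 2, with no share for the other genes.

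The 14 kept genes lay at 8 loci, which were the loci of tRNA:Ala-CGC-1-1, tRNA:Lys-TTT-2-1, tRNA:iMet-CAT-1-4, tRNA:Arg-ACG-1-3, tRNA:Ser-GCT-2-3, tRNA:Glu-TTC-1-5, tRNA:Thr-AGT-1-4 and tRNA:Ala-TGC-1-1. They were among the most enriched in control cells, with percentiles from 94.4 to 99.6 (median 98.3), against a median of 69.6 for the 24 that were not kept. Among strong control peaks the share was still apart from that of other genes. Of the genes at or over the 90th percentile in control cells, 14 of 18 tRNA genes (77.8%) were kept after *eff* knockdown, against 75 of 334 others (22.5%). After *cul4* knockdown, 15 of the 18 (83.3%) were kept, against 299 of the 334 (89.5%). With every list shortened to its 424 strongest peaks, 13 of 16 tRNA genes (81.2%) were kept after *eff* knockdown, against 66 of 227 others (29.1%).

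At tRNA:Lys-TTT-2-1, Cul4 was enriched 5.19-, 5.57- and 8.81-fold after *eff* knockdown, 13.32-, 15.46- and 9.74-fold after *cul4* knockdown, and 22.79-, 18.25- and 24.62-fold in control cells. Both knockdowns lay below the control without overlap. At the initiator Met locus of tRNA:iMet-CAT-1-4, within the gene *ome*, the values were 10.00-, 12.74- and 23.81-fold after *eff* knockdown, 15.40-, 21.84- and 11.01-fold after *cul4* knockdown, and 19.67-, 15.11- and 23.88-fold in control cells, which overlap. At tRNA:Thr-AGT-1-4 they were 5.59-, 7.55- and 10.96-fold, 10.84-, 14.45- and 9.42-fold, and 11.33-, 7.83- and 12.95-fold in the same order, which overlap as well. Replicate 3 of the *eff* knockdown had the highest value of its group at each of these loci, and the median fold of its list was 7.59, against 2.73 and 3.19 in replicates 1 and 2.

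**Figure D4:**
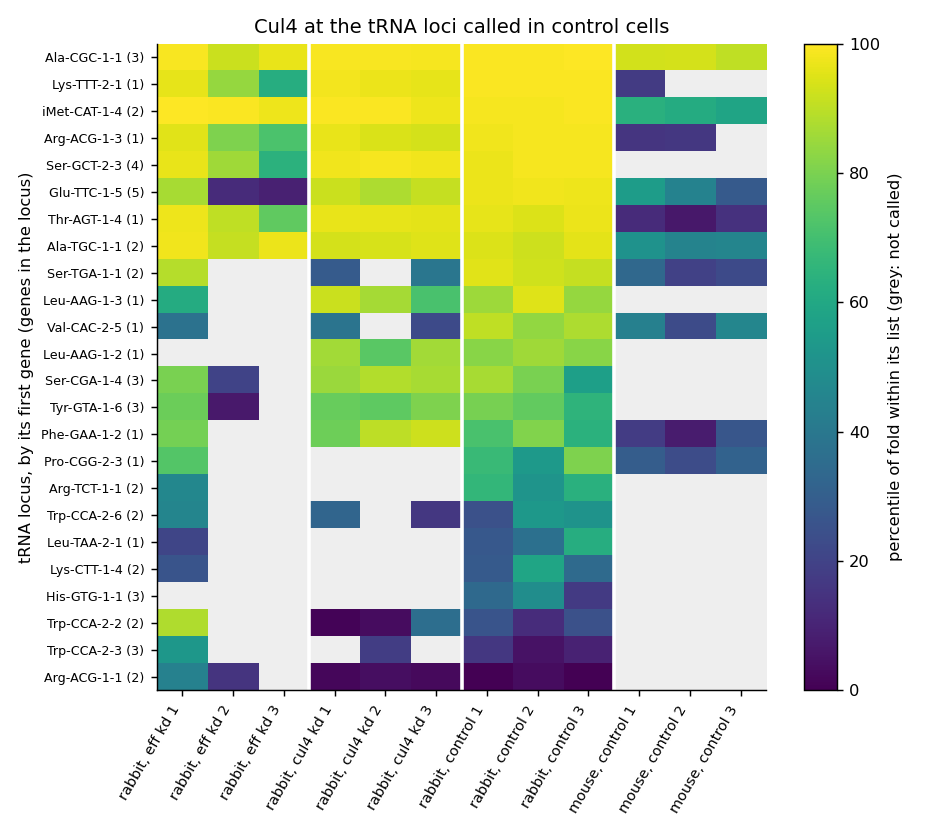
Percentile of fold enrichment within its own list (colour, grey where not called) for Cul4 at the 24 tRNA loci reproducibly called in control cells with the rabbit antibody, with loci in rows from highest to lowest in control cells and libraries in columns. The 8 loci at the top are called in every rabbit library, and most others lack a call in replicates 2 and 3 after *eff* knockdown.

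The 2 tRNA genes that lost Cul4 after *eff* knockdown were tRNA:His-GTG-1-3 (3.34-, 3.62- and 3.20-fold in control cells) and tRNA:Leu-AAG-1-2 (5.19-, 5.47- and 5.60-fold), both on 2R. After *cul4* knockdown, 25 of the 38 tRNA genes were kept (65.8%), against 55.8% of the other genes, 6 were lost (15.8%), against 17.3%, and none was gained, against 0.0477%. These shares are near the background. The lost genes were tRNA:Lys-CTT-1-4, tRNA:Ile-AAT-1-1, tRNA:Arg-TCT-1-1 and tRNA:His-GTG-1-3 on 2R, tRNA:Pro-CGG-2-3 on 3L (4.33-, 3.77- and 5.47-fold in control cells) and tRNA:Leu-TAA-2-1 on 3R (3.18-, 3.33- and 4.48-fold). All 6 had control enrichment of 5.47-fold or less.

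Replicate 1 of rabbit Cul4 after *eff* knockdown called 44 tRNA genes at 20 loci that no other rabbit library called. Their enrichment was low, 2.02- to 3.16-fold with a median of 2.48 and a median percentile of 29.3. Of the 44 genes, 41 lay in clusters, against 190 of all 295 tRNA genes. An identical copy was held by 37, against 238 of the 295, and 28 had no CP190 call in any control library, against 195. The shares with a copy and without CP190 are near those over all tRNA genes. The 44 genes carried 18 isotypes, with 6 genes for Asn, of which 2 had a call in 1 other list, CP190 in control cells, and the other 4 had none. Summits lay within 100 bp of a tRNA gene for 29 of the 49 peaks at tRNA genes in this library (59.2%), against 3 of 12 and 2 of 10 in the other 2 libraries of the group, and for 8.0, 16.7 and 11.5% of the peaks in control cells. The library called 17.7% of the other nuclear genes. The part of the library in these calls was not tested. Replicate 3 of CP190 in control cells likewise called 14 tRNA genes that the other CP190 control libraries did not, 6 of them among the 88 of this Cul4 library, at a median of 3.02-fold.

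CP190 stayed at most tRNA genes. After *eff* knockdown 65 of 71 were kept (91.5%), against 97.8% of the other genes, 3 were lost (4.23%), against 0.587%, and none was gained, against 0.0287%. The lost ones were tRNA:Ser-CGA-1-4 and tRNA:Val-AAC-2-1, which share a peak on 2R (4.15-, 3.16- and 4.18-fold in control cells), and tRNA:Ala-AGC-2-1 on 3L within *nmo* (4.72-, 4.71- and 4.35-fold), all low in the control lists. Without control replicate 2 the number lost was 9, and the share of other genes lost was not counted in that setting. The order of the kept shares depended on list length. With each of the 6 lists shortened to its 7358 strongest peaks, 65 of 66 tRNA genes were kept (98.5%), against 96.37% of the others. In that setting 1 tRNA gene was lost, against 0.65% of the others. After *cul4* knockdown 61 were kept (85.9%), against 81.4%, 1 was lost (1.41%), against 1.32%, and none was gained, against 0%. The one lost, tRNA:Leu-AAG-1-4 on 2R, still had peaks in the knockdown libraries 521, 578 and 613 bp away, against 449, 495 and 425 bp in control cells. Without control replicate 2 the number lost was 6, again with no count for the other genes. Without *cul4* knockdown replicate 1 the number lost was 5 of 71, against 4.71% of the other genes.

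Su(Hw) was kept at 14 of 15 tRNA genes after *eff* knockdown (93.3%), against 90.9% of the other genes, and at 13 of 15 after *cul4* knockdown (86.7%), against 80.3%. tRNA:Leu-AAG-1-2 was lost after *eff* knockdown (6.67%), against 1.15%, with 4.83-, 3.69- and 3.74-fold in control cells, and none was lost after *cul4* knockdown, against 9.06%. None was gained in either, against 0.0174 and 0.0116%. The number of libraries with Su(Hw) differed between a knockdown and the control at 3 tRNA genes. After *eff* knockdown, after *cul4* knockdown and in control cells it was 0, 2 and 3 at tRNA:Leu-AAG-1-2, 3, 2 and 3 at tRNA:Gly-GCC-1-10, and 1, 0 and 0 at tRNA:Lys-CTT-1-10.

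Changes in enrichment were tested with limma on log2 fold enrichment over all regions called in all 6 libraries of a comparison, centred on the median of each library, with Benjamini-Hochberg adjusted p at a threshold of 0.05. For CP190 after *eff* knockdown, 6 of 46 tRNA regions rose and 12 fell, beside 14.0 and 16.6% of the 6807 regions away from tRNA genes. The median log2 change was −0.10 over the tRNA regions and −0.04 over the others. Enrichment rose at tRNA:Thr-AGT-2-1 on 2R, to 15.44-, 17.26- and 14.85-fold after *eff* knockdown against 8.20-, 8.51- and 7.88-fold in control cells (log2 change 0.79, SE 0.12, limma adjusted p = 0.00117). It rose at the 3 Leu genes around tRNA:Leu-CAG-1-2 on 3L, to 14.00-, 15.41- and 10.98-fold against 8.58-, 5.66- and 7.38-fold (0.75, adjusted p = 0.0015), and at tRNA:Trp-CCA-2-2 on 2R (0.70, adjusted p = 0.00098). The groups did not overlap at these loci.

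CP190 fell after *eff* knockdown at tRNA:Gly-GCC-1-3 on 2L, with 4.48-, 5.25- and 4.27-fold after knockdown against 8.31-, 5.39- and 9.07-fold in control cells (log2 change −0.83, SE 0.13, limma adjusted p = 0.0014). It fell at tRNA:Gly-TCC-1-2 on 3R (−0.75, adjusted p = 0.00112), at tRNA:Val-CAC-2-5 with 6.73-, 8.35- and 9.85-fold against 12.70-, 11.40- and 13.12-fold (−0.75, adjusted p = 0.00297), and at tRNA:Lys-TTT-2-1 with 10.53-, 10.63- and 12.35-fold against 16.45-, 15.76- and 15.85-fold (−0.68, adjusted p = 0.00276). The other 8 that fell had log2 changes from −0.63 at the tRNA:Glu-TTC-1-5 cluster to −0.26 at tRNA:Lys-TTT-2-5. At tRNA:Arg-TCG-2-4, the highest in control cells, CP190 had 17.41-, 17.07- and 20.39-fold after *eff* knockdown against 17.13-, 20.90- and 18.53-fold, with overlap. Of the 18 regions past the threshold, 8 held under all 11 alternatives, namely the 7 given with adjusted p here and tRNA:Leu-CAA-2-3. The count was 11 without control replicate 3, and the tRNA:Glu-TTC-1-5 call was lost without *eff* knockdown replicate 1 or 2. Without centring, 8 rose and 6 fell. The pooled median of the *eff* knockdown over all fitted regions lay 0.14 above that of the control on the log2 scale.

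After *cul4* knockdown, 3 of 48 CP190 tRNA regions rose and 4 fell, beside 8.35 and 9.60% of the 5883 other regions. Those that rose were tRNA:Leu-CAA-2-3, the pair tRNA:Pro-AGG-1-2 and tRNA:Pro-AGG-1-3 on 2L (0.65, limma adjusted p = 0.0268) and tRNA:Asp-GTC-1-6 on 2L (0.45, adjusted p = 0.0388). Those that fell were tRNA:Leu-AAG-1-4 (−1.09, adjusted p = 0.0084) and tRNA:Leu-CAG-1-1 (−0.52, adjusted p = 0.0212) on 2R, and tRNA:Gly-TCC-1-2 (−0.52, adjusted p = 0.0191) and tRNA:Val-CAC-2-5 (−0.50, adjusted p = 0.0212) on 3R. The groups overlapped at tRNA:Leu-CAG-1-1, tRNA:Gly-TCC-1-2 and tRNA:Val-CAC-2-5. At tRNA:Val-CAC-2-5 CP190 had 9.93-, 11.01- and 12.93-fold after *cul4* knockdown, against 12.70-, 11.40- and 13.12-fold in control cells. Only the tRNA:Leu-AAG-1-4 call held in each of the 10 alternatives in which it could be fitted, and the other 6 were lost without control replicate 3. The count was 18 without *cul4* knockdown replicate 1, 2 without replicate 2, and 2, 4 and 1 without control replicate 1, 2 and 3. Without centring, 14 rose and 1 fell. The pooled median of the *cul4* knockdown over all fitted regions lay 0.30 above that of the control on the log2 scale.

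**Figure D5:**
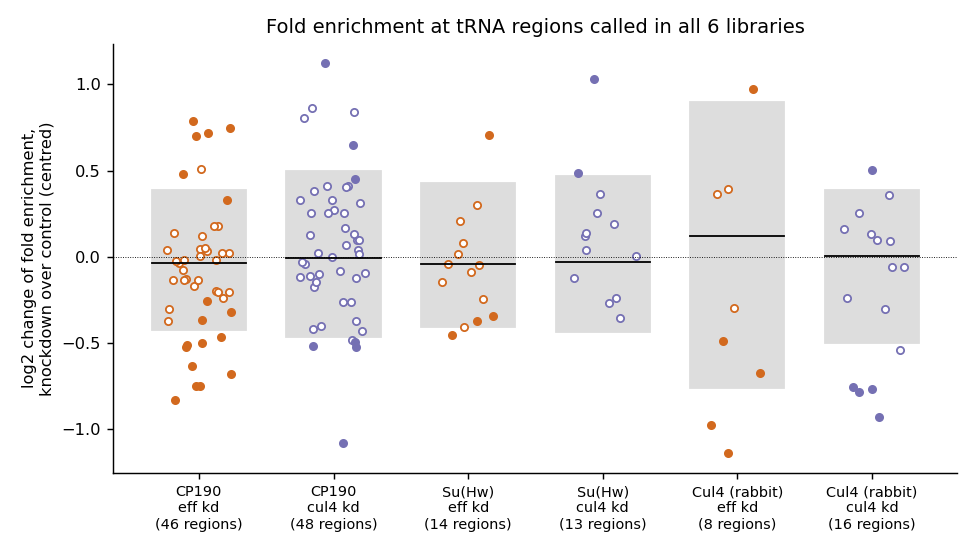
Log2 change of fold enrichment, knockdown over control and centred on the median of each library, for every tRNA region called in all 6 libraries of a comparison, filled where the limma adjusted p is below 0.05. The grey box spans the 10th to 90th percentile of the regions away from tRNA genes and the black line their median, and tRNA:Leu-CAA-2-3 is the highest point for CP190 after *cul4* knockdown and for Su(Hw) after both knockdowns.

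tRNA:Leu-CAA-2-3 was the only tRNA region where rises of CP190 and Su(Hw) passed the threshold in both knockdowns. At tRNA:Pro-TGG-1-5 the log2 changes were positive too, 0.51 and 0.80 for CP190 and 0.30 and 0.49 for Su(Hw) after *eff* and *cul4* knockdown. Of these, only the Su(Hw) change after *cul4* knockdown passed. tRNA:Leu-CAA-2-3 is a single gene of 123 bp without an identical copy, 2299 bp from the TSS of *CG10183*. Its CP190 summit lies upstream in the window printed with TGCATA. CP190 was enriched 15.47-, 18.24- and 15.88-fold after *eff* knockdown, 16.72-, 27.41- and 33.89-fold after *cul4* knockdown, and 8.75-, 9.41- and 8.76-fold in control cells. The log2 change was 0.72 (SE 0.13, limma adjusted p = 0.00263) after *eff* knockdown and 1.12 (SE 0.20, adjusted p = 0.00912) after *cul4* knockdown, and the second call was lost without control replicate 3 (adjusted p = 0.0535). Every knockdown library lay above every control library.

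Su(Hw) at tRNA:Leu-CAA-2-3 was enriched 23.01-, 15.42- and 12.57-fold after *eff* knockdown, 22.52-, 25.14- and 12.60-fold after *cul4* knockdown, and 9.63-, 8.59- and 8.99-fold in control cells. The log2 change was 0.70 (SE 0.13, limma adjusted p = 0.00217) after *eff* knockdown and 1.03 (SE 0.15, adjusted p = 0.000803) after *cul4* knockdown. Again the groups did not overlap. Rabbit Cul4 was called there in 1 library of 9, replicate 1 of the *eff* knockdown, at 2.48-fold. The locus lay at a mean percentile of 92.0, 97.2 and 66.8 in the CP190 lists and 95.0, 98.0 and 64.9 in the Su(Hw) lists after *eff* knockdown, after *cul4* knockdown and in control cells.

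Elsewhere Su(Hw) changed at few tRNA genes. After *eff* knockdown, 1 of 14 regions rose and 3 fell, beside 15.4 and 14.7% of 3400 other regions, and those that fell were tRNA:Lys-CTT-1-10 (−0.46, limma adjusted p = 0.0168), the pair tRNA:Val-TAC-1-1 and tRNA:Val-TAC-1-2 (−0.38, adjusted p = 0.0381) and tRNA:Lys-TTT-2-5 (−0.35, adjusted p = 0.028). The pooled median of this knockdown over all fitted regions lay 0.14 above that of the control on the log2 scale. Without centring, 1 rose and none fell. Without control replicate 3 the count was 1, since the 3 calls of a fall were lost. After *cul4* knockdown, 2 of 13 rose and none fell, beside 14.4 and 14.6% of 2977 other regions. tRNA:Pro-TGG-1-5 on 3R was the other one that rose (0.49, adjusted p = 0.0179), a call lost without *cul4* knockdown replicate 1 or 2 or control replicate 1. The count was 1 without *cul4* knockdown replicate 1 or 2 or control replicate 1, and 5 without *cul4* knockdown replicate 3.

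Rabbit Cul4 could be tested at 8 tRNA regions after *eff* knockdown, where 1 rose and 4 fell relative to the median region, beside 28.1 and 22.7% of 185 other regions. The pooled median of this knockdown over all fitted regions lay 0.84 below that of the control on the log2 scale. Without centring, none rose and 5 fell. The regions that fell were those of tRNA:Glu-TTC-1-5 on 2R, with 3.55-, 2.62- and 4.52-fold after *eff* knockdown against 13.20-, 12.31- and 14.68-fold (−1.14, SE 0.18, limma adjusted p = 0.000384), tRNA:Lys-TTT-2-1 (−0.98, adjusted p = 0.000306), tRNA:Arg-ACG-1-3 (−0.68, adjusted p = 0.00504) and tRNA:Ser-GCT-2-3 to tRNA:Ser-GCT-2-5 (−0.49, adjusted p = 0.0388). The Ser call was lost without *eff* knockdown replicate 1 or control replicate 2 or 3. The locus of tRNA:Ala-TGC-1-1 on 2R rose (0.98, adjusted p = 0.00488), with 5.83-, 7.60- and 21.16-fold against 8.73-, 6.88- and 10.83-fold, which overlap. That call was lost without *eff* knockdown replicate 2 or 3 (adjusted p = 0.0808 and 0.203) and without centring (0.733).

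After *cul4* knockdown, 1 of 16 rabbit Cul4 regions rose and 4 fell, beside 10.3 and 14.7% of 2021 other regions. The tRNA:Glu-TTC-1-5 cluster fell to 6.73-, 6.92- and 7.22-fold after *cul4* knockdown, against 13.20-, 12.31- and 14.68-fold in control cells (−0.93, SE 0.16, limma adjusted p = 0.000131). tRNA:Arg-ACG-1-3 (−0.79, adjusted p = 0.00649), tRNA:Lys-TTT-2-1 (−0.77, adjusted p = 0.0199) and tRNA:Val-CAC-2-5 (−0.76, adjusted p = 0.000243) fell too. tRNA:Phe-GAA-1-2 on X, 233 bp from the TSS of *RpL17*, rose to 4.85-, 7.56- and 7.73-fold, against 4.46-, 5.01- and 4.54-fold (0.51, adjusted p = 0.0133), which overlap. The tRNA:Lys-TTT-2-1 call was lost without *cul4* knockdown replicate 3 or control replicate 1 or 3, the tRNA:Phe-GAA-1-2 call without *cul4* knockdown replicate 2 or control replicate 3, and without control replicate 3 the count was 3.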

How the data were processed

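ChIP-seq peak lists of Kc167 cells were used, 30 libraries in 10 groups of 3. The 9 input libraries have no list and were not used here. Per the labels and methods, the authors used cutadapt 3.4 to trim single-end 50 bp reads and Bowtie2 2.4.2 to place them on the dm6 assembly, filtered them on mapping quality with SAMtools 1.12, removed duplicates with Picard, and called peaks over input (MACS2 2.2.7.1, q cutoff 1e-09), so reads that fit several copies of a tRNA gene were removed. The methods say that replicate files went into the peak caller together, whereas each deposited list has its own length and names 1 replicate. The lists were read as calls of single libraries, and if they drew on shared reads, the 3 calls of a group are not independent. The deposited columns used are fold enrichment, a ratio of pileup to local background, −log10 q and −log10 p. The −log10 p ranked the peaks wherever lists were shortened to their strongest peaks, with fold enrichment for ties. The deposited score, a form of −log10 q, was not used further. Read totals are unknown, so no counting interval is given.

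Genes came from the Ensembl 115 annotation of release 6, with microRNA genes taken by symbol, and sequences from RefSeq. A tRNA region was a merged peak region that met a window of 500 bp around a tRNA gene, and the highest fold of each library was used. Regions were tested with limma 3.58.1 in R 4.3.3 (lmFit, eBayes with trend, two-sided, only the 6 libraries compared). The fit was tested on simulated data. Libraries were not paired by replicate number in the main fits. Alternatives were the flank, the summit in place of the peak, a −log10 q of 20, equal list lengths, other scalings and each replicate left out. The named loci are the 5 of highest percentile for each factor in control cells, all lost loci, all regions past the threshold, the largest clusters and genes with all 3 factors, and tRNA:Thr-AGT-1-4 and the other gene lists were described beside them. Members and lists were chosen with earlier results of these data known. P-values measure the spread between these cultures of 1 line.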

Additional observations from a re-analysis of the deposited data

How the results depend on the processing

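Of the 41 tRNA regions past the limma threshold in 6 comparisons, 17 were called under every alternative and none changed sign. Read totals are unknown, and a list of few peaks shows only strong sites, so a missing call is not absence of binding. Peaks on the gene span alone gave fewer reproducible genes, after *eff* knockdown, after *cul4* knockdown and in control cells 36, 31 and 37 for CP190, 5, 6 and 7 for Su(Hw), and 9, 11 and 14 for rabbit Cul4, with 9 for the mouse antibody. After *eff* and *cul4* knockdown, genes kept were then 33 and 31 for CP190, 5 and 6 for Su(Hw), and 9 and 11 for rabbit Cul4, and genes lost 1 and 2 for CP190 and 0 and 1 for rabbit Cul4. With 1000 bp flanks, 4 and 10 genes lost rabbit Cul4 after *eff* and *cul4* knockdown and 0 lost CP190 after *cul4* knockdown. With the summit in the window, 44 genes had CP190 after *eff* knockdown, and 17 and 21 had rabbit Cul4 after *cul4* knockdown and in control cells. With calls in at least 2 libraries, 22 genes had rabbit Cul4 after *eff* knockdown.

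With a difference of at least 2 libraries, losses were 10 and 10 for CP190 after *eff* and *cul4* knockdown and 20 for rabbit Cul4 after *eff* knockdown, with 2 gains. Shares of the other genes were not counted in that setting. They were also not counted with other flanks, the summit rule, calls in at least 2 libraries, a −log10 q of 20 or a control replicate left out. Those counts cannot be set against a background. Shares gained among the other genes are given for the full lists alone. With equal numbers of the strongest peaks, rabbit Cul4 was at 15 and 16 genes after *cul4* knockdown and in control cells, losses were 1 for CP190, 0 for Su(Hw) and 0 for rabbit Cul4 after *eff* knockdown and 0 for rabbit Cul4 after *cul4* knockdown, and gains after *cul4* knockdown 2 for CP190 and 1 for rabbit Cul4. At a −log10 q of at least 20, 3 genes lost rabbit Cul4 after *cul4* knockdown. Each library left out in turn gave losses of 3 to 9 and 1 to 6 for CP190 after *eff* and *cul4* knockdown, and 2 to 19 losses and 0 to 2 gains for rabbit Cul4 after *eff* knockdown. In control cells beyond 10000 bp from a TSS, the summit rule gave 5 genes for CP190, 0 for Su(Hw) and 1 for the mouse antibody. Distance from the gene's 5′ end gave 1 Su(Hw) gene within 500 bp and 3 beyond 10000 bp, and gaps of up to 5000 bp put 8 Su(Hw) genes in clusters.

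For the limma counts, leaving out each library gave 11 to 16 regions for CP190 after *eff* knockdown, 1 to 18 for CP190 after *cul4* knockdown, 1 to 4 and 1 to 5 for Su(Hw) after *eff* and *cul4* knockdown, and 3 to 5 for rabbit Cul4 after *cul4* knockdown. CP190 after *cul4* knockdown had 13 regions with quantile normalization and 15 without centring, and Su(Hw) without centring 1 after each knockdown. Under quantile normalization rabbit Cul4 after *eff* knockdown had 3 regions higher and 3 lower. Correlations of same-numbered libraries ran from −0.42 to 0.535, and those of differently numbered libraries reached 0.53. The values were centred within groups of 3 libraries, so they cannot exclude that the numbers pair libraries. With a replicate block CP190 after *cul4* knockdown had 11 regions, the other counts staying within 1.5 times. The causes of these shifts were not tested. The counts of kept genes with the strongest peaks were chosen after seeing the data.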
